A study of Canis lupus familiaris with 8 samples.

Results

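The 8 genes LGALS3, LMNA, ADIRF, RBP4, CCDC3, FGL2, S100A14 and GSDMA were followed across circulating canine T cells. They are 8 of the 20257 genes counted. They were taken by symbol from the gene list, and each symbol had 1 row. The genes were chosen by their level in these same cells, as genes held in common by populations of the T helper 2 (Th2) and regulatory (Treg) kind, so their excess in cells with GATA3 or FOXP3 is given as a description with no test.

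The cells were TCRαβ+ T cells sorted from blood mononuclear cells, and each of 4 healthy experimental Beagles gave 1 droplet library of 5' gene expression and 1 of T cell receptor sequences. The only female, aged 5 years, is dog 1, and the males are dogs 2 and 3 (both 7 years) and dog 4 (9 years). The dog was the replicate, so n = 4 throughout, and p-values rest on the spread over these 4 animals. In the main count tests the sums of a dog were taken as independent. Tests with the dog as a block and permutation tests used differences within dogs. After quality control 31909 cells were kept, 7096 to 8454 a dog, with medians of 3599 to 3931.5 unique molecular identifiers (UMIs) a cell.

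GATA3 is the transcription factor that directs Th2 cells, and FOXP3 is the factor that defines Treg cells. GPR25 is an orphan G protein-coupled receptor. The genes followed here have no single function in common. LGALS3 encodes galectin-3, a lectin that binds β-galactosides, and LMNA encodes the A-type lamins of the nuclear lamina. RBP4 carries retinol in plasma, and ADIRF is named for its part in fat cell differentiation. FGL2 is a fibrinogen-like protein that Treg cells can secrete, and CCDC3 is a secreted coiled-coil protein. S100A14 belongs to the calcium-binding S100 family, and GSDMA is a gasdermin, a pore-forming protein known from skin.

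Cells were placed in classes by the UMIs they held. GATA3 cells had a GATA3 UMI and none of FOXP3 or GPR25, and numbered 8166, or 25.6% of all cells. FOXP3 cells (550) and GPR25 cells (1928) were defined in the same way, and 589 cells had GATA3 and FOXP3 without GPR25. A further 19423 cells had none of the 3, and 3566 of these also had UMIs of CCR7, LEF1 and TCF7 and are called naive-like. Median UMIs were 4302 in GATA3 cells, 4034.5 in FOXP3 cells, 3788 in GPR25 cells, 5247 in GATA3+FOXP3 cells, 3505 in cells with none and 3836 in naive-like cells. Levels are therefore given as CPM, the UMIs of a gene as a rate per 1000000 UMIs in the summed cells of a dog, and ratios as log2 of CPM + 1 averaged over dogs. In sums over a class, more cells with a gene and more RNA in each cell cannot be told apart.

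Every member was higher in GATA3 cells than in cells with none in all 4 dogs, which was true of 20.4% of the 8274 genes at 5 CPM or more. LMNA had the highest ratio at 1.22 ± 0.23 (log2, SD, n = 4), followed by GSDMA at 1.16 ± 0.22, S100A14 at 1.11 ± 0.09 and LGALS3 at 1.09 ± 0.21. FGL2 had the lowest at 0.52 ± 0.16. The median over the members was 0.98, against 0.01 over all genes at that level. In cells with a CD4 and no CD8A UMI alone the same ratio was lower, for example 0.36 for ADIRF, 0.36 for CCDC3 and 0.50 for RBP4, against 0.61, 0.76 and 0.86 in all cells.

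FOXP3 cells did not share the whole set. LGALS3, LMNA, ADIRF, RBP4, S100A14 and GSDMA, 6 of the 8, were higher in FOXP3 cells than in cells with none in every dog, against 9.1% of genes. CCDC3 was not: its ratio was -0.56 ± 0.79, and it was higher in 1 of 4 dogs. FGL2 had a ratio of 0.15 ± 0.18 and was higher in 3 of 4. A lower level in every dog was found for 11.6% of genes and for none of the members. After thinning to 2000 UMIs a cell FGL2 was higher in 4 of 4 dogs at 0.31 ± 0.20, CCDC3 was at -0.56 ± 0.76, and S100A14, at 0.43 ± 1.61, was higher in 3 of 4. FGL2 was also higher in 4 of 4 in cells with exactly 1 TCRβ (TRB) rearrangement (0.21 ± 0.21) and in CD4 sp cells, those with a CD4 UMI and no CD8A UMI (0.24 ± 0.29). It went the other way where a class needed 2 UMIs of its marker, which left 2 dogs. There FGL2 was at -0.20 ± 0.05, higher in 0 of 2, and CCDC3 was at -2.26 ± 0.43. CCDC3 thus did not show in FOXP3 cells the excess it had in GATA3 cells, though dogs differed in direction. The FOXP3 class holds no cell with a GATA3 UMI, so it is only a part of the cells with FOXP3. The count for FGL2 and S100A14 differed between settings.

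In GPR25 cells, LGALS3, RBP4, CCDC3, FGL2 and GSDMA, 5 of 8, were higher than in cells with none in every dog, against 13% of genes. LMNA (0.29 ± 0.38), ADIRF (0.02 ± 0.41) and S100A14 (0.42 ± 0.44) were not higher in all 4. The count of 5 was 2 in CD4 sp cells alone and 3 in cells with exactly 1 TRB rearrangement.

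**Figure D1:**
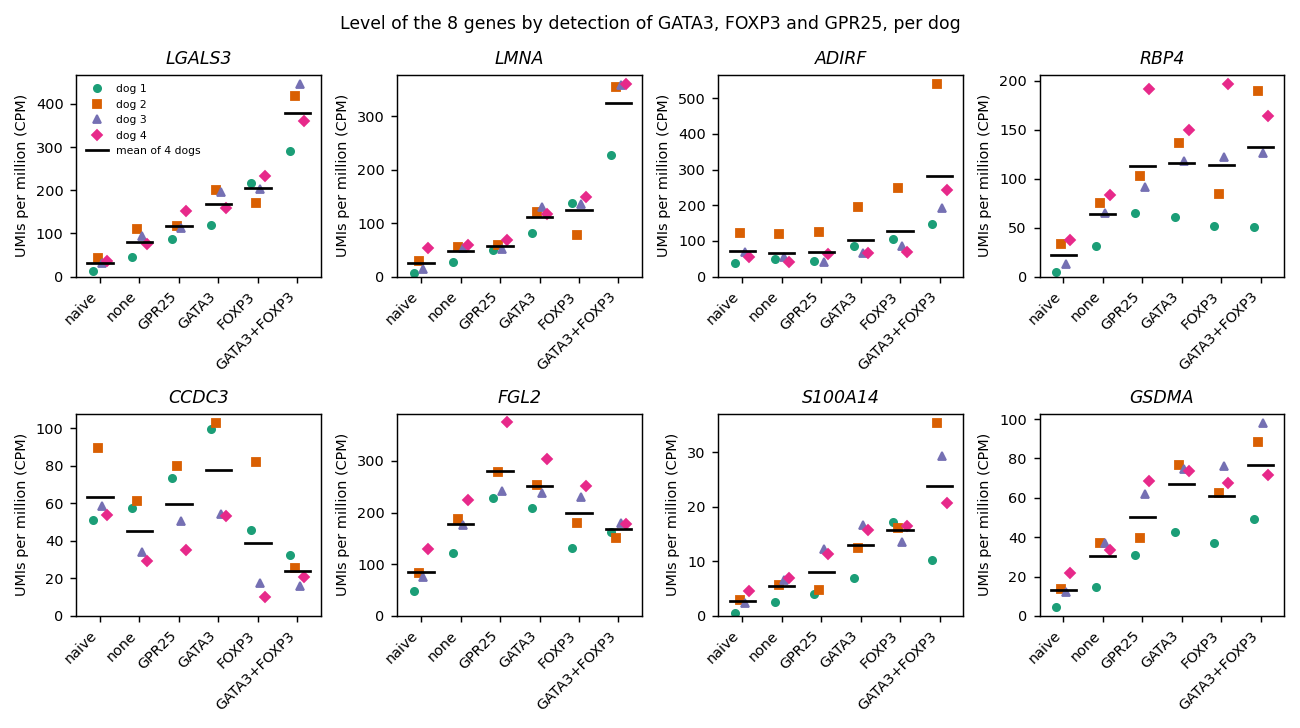
Level of each gene in CPM (linear axes from 0) in 6 cell classes. Points are the 4 dogs and black lines their mean. LGALS3, LMNA and ADIRF are highest in GATA3+FOXP3 cells, where LGALS3 lies between 291 and 446 CPM, whereas CCDC3 is lowest there, at 16.2 to 32.7 CPM.

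LGALS3 was at 121, 201, 196 and 158 CPM in the GATA3 cells of dogs 1 to 4. In FOXP3 cells it was at 218, 170, 203 and 234 CPM, and in GPR25 cells at 87.5, 117, 112 and 151 CPM. Cells with none held 46.0, 110, 93.2 and 76.0 CPM. Naive-like cells were lowest, at 12.3, 43.5, 31.0 and 36.5 CPM, and did not overlap with any other class. The ranges of neighbouring classes overlapped from cells with none up to FOXP3 cells, and GATA3+FOXP3 cells, at 291, 420, 446 and 361 CPM, lay above all of them. The share of all genes without overlap between classes was not counted. A lack of overlap, here or below, is therefore not read as particular to the members. A UMI of LGALS3 was found in 63.2% ± 8.4 of GATA3+FOXP3 cells, 37.3% ± 4.4 of FOXP3 cells, 33.6% ± 8.0 of GATA3 cells, 16.1% ± 5.4 of cells with none and 8.2% ± 4.1 of naive-like cells. The sort left no cell type that should lack LGALS3, so a background from free RNA was not measured, and the naive-like share was the lowest of these.

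LMNA followed the same order. It was at 80.7, 121, 130 and 117 CPM in GATA3 cells, and at 227, 356, 359 and 361 CPM in GATA3+FOXP3 cells. Cells with none had 27.5, 55.2, 53.6 and 58.6 CPM, so that these 3 classes did not overlap. In FOXP3 cells LMNA was at 138, 77.0, 137 and 150 CPM, with dog 2 below the others. Naive-like cells had 7.4 to 53.3 CPM, below the FOXP3 cells of every dog.

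ADIRF stood out for the difference between dogs. In GATA3 cells it was at 87.0, 194, 67.4 and 65.9 CPM, and in GATA3+FOXP3 cells at 147, 541, 193 and 243 CPM. Dog 2 was the highest in both and in cells with none, at 120 CPM against 42.2 to 53.9. Over all cells ADIRF was at 163 CPM in dog 2 and at 57.1 to 62.9 CPM in the other dogs, a spread of 2.84 times between the highest and the lowest dog. Naive-like cells, at 37.5 to 121 CPM, overlapped with cells with none and with GATA3 cells, so that for ADIRF these were not the lowest class.

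RBP4 was lower in dog 1 than in the others. It was at 61.0, 136, 118 and 150 CPM in GATA3 cells, at 51.6, 84.2, 122 and 197 CPM in FOXP3 cells and at 64.5, 102, 91.9 and 192 CPM in GPR25 cells. These 3 classes overlapped widely. Naive-like cells had 4.9 to 37.1 CPM and did not overlap with any of them.

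CCDC3 was lower in FOXP3 than in GATA3 cells in each dog, though the ranges of the classes overlapped. It was at 99.9, 103, 54.5 and 53.6 CPM in GATA3 cells and at 45.8, 82.4, 17.8 and 10.3 CPM in FOXP3 cells. The FOXP3 values rest on 16, 46, 17 and 5 UMIs. In GATA3+FOXP3 cells it was at 32.7, 25.7, 16.2 and 20.7 CPM, below the GATA3 cells of the same dog in each case. Naive-like cells held 51.0, 89.7, 58.5 and 53.9 CPM, more than the GATA3+FOXP3 cells in every dog.

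FGL2 was detected in 39.5% ± 8.9 of all cells. Its level was 228, 278, 241 and 375 CPM in GPR25 cells, 208, 253, 238 and 304 CPM in GATA3 cells and 132, 179, 231 and 252 CPM in FOXP3 cells, with overlap between all 3. Naive-like cells had 47.9 to 130 CPM.

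GSDMA was at 42.9, 76.6, 74.7 and 73.5 CPM in GATA3 cells and at 14.7, 36.9, 36.8 and 33.6 CPM in cells with none, with dog 1 the lowest in both and no overlap between the classes. S100A14 was sparse, with a UMI in 2.6% ± 1.0 of all cells. In GATA3 cells it was at 7.0, 12.4, 16.6 and 15.8 CPM. Its FOXP3 values, 13.6 to 17.2 CPM, come from 6 to 13 UMIs a dog.

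Cells with UMIs of GATA3 and FOXP3 together had higher mean levels of LGALS3, LMNA, ADIRF, RBP4 and S100A14 than any other class. For RBP4 and S100A14 the dogs did not all bear this out. The ratio of RBP4 was 0.11 ± 0.30 against GATA3 cells, higher in 3 of 4 dogs. Against FOXP3 cells it was 0.24 ± 0.64, higher in 2 of 4, and that of S100A14 was 0.44 ± 0.84, higher in 3 of 4. Against cells with none, LMNA had a ratio of 2.75 ± 0.18, LGALS3 2.26 ± 0.29, ADIRF 2.01 ± 0.41, S100A14 1.88 ± 0.43 and GSDMA 1.34 ± 0.26. With RBP4 at 0.98 ± 0.27, 6 members were higher in every dog, against 19.3% of genes. CCDC3 was lower in every dog at -0.88 ± 0.32, which was so for 22.8% of genes, and FGL2 was at -0.05 ± 0.34. The CCDC3 ratio was -0.39 after thinning to 2000 UMIs. Where a class needed 2 UMIs of its marker, which left 3 dogs, it was -1.91 for CCDC3 and 0.09 ± 2.64 for S100A14.

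The same cells were set against cells with only the one or the other factor. Against GATA3 cells, LMNA (1.53 ± 0.07), ADIRF (1.40 ± 0.47), LGALS3 (1.17 ± 0.08) and S100A14 (0.77 ± 0.48) were higher in every dog, 4 of 8 against 16.6% of genes. For S100A14 the ratio turned to -1.37 where a class needed 2 UMIs of its marker, which left 3 dogs. CCDC3 (-1.64 ± 0.26) and FGL2 (-0.57 ± 0.21) were lower in every dog, 2 of 8 against 20.8% of genes. Against FOXP3 cells, LMNA (1.39 ± 0.61), ADIRF (1.14 ± 0.54), LGALS3 (0.87 ± 0.42) and GSDMA (0.33 ± 0.17) were higher in every dog, 4 of 8 against 13.4% of genes. None of the members was lower in every dog there, against 12% of genes. In CD4 sp cells alone, LGALS3 was higher than in FOXP3 cells in 3 of 4 dogs (0.68 ± 0.68) and FGL2 in 0 of 4 (-0.34 ± 0.22). LMNA, ADIRF and GSDMA were again higher in 4 of 4. GATA3+FOXP3 cells had the most UMIs. With every cell at 2000 UMIs, LGALS3 (1.23 ± 0.18), LMNA (1.59 ± 0.16) and ADIRF (1.37 ± 0.47) were higher than in GATA3 cells in every dog, and LGALS3 (1.01 ± 0.36) and LMNA (1.55 ± 0.67) higher than in FOXP3 cells. In cells with exactly 1 TRB rearrangement LGALS3 was above GATA3 cells by 1.28. Droplets with more than 1 cell were otherwise not tested for their part in these ratios.

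**Figure D2:**
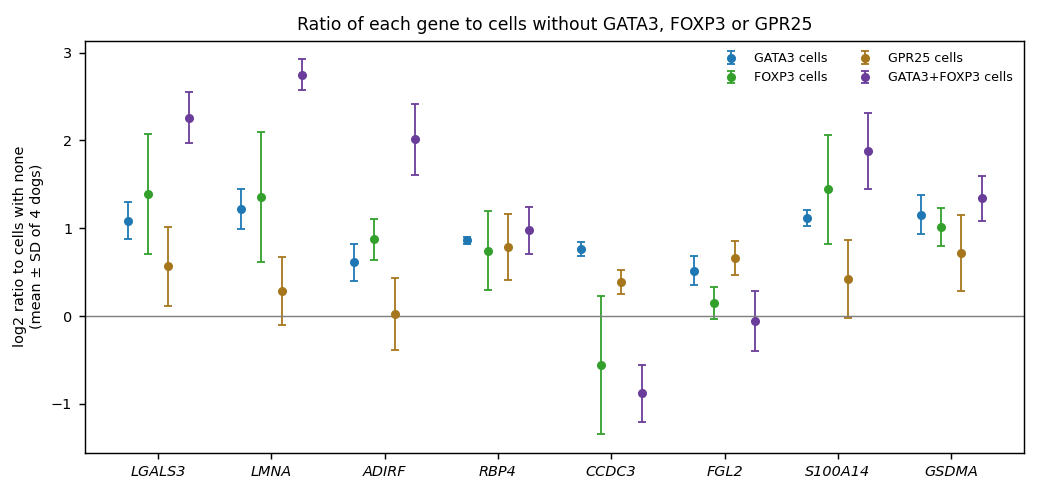
Mean log2 ratio of CPM + 1 to cells without GATA3, FOXP3 or GPR25, with SD over 4 dogs as bars. Values above 0 are higher than in cells with none; CCDC3 lies above 0 in GATA3 cells and below 0 in FOXP3 and GATA3+FOXP3 cells.

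All 8 genes had a higher mean level at each step in the number of GATA3 UMIs in a cell, in cells without FOXP3 or GPR25. The share of all genes with such a rise was not counted, so the rise is not read as particular to the members. LGALS3 went from 81.2 ± 27.2 CPM at 0 UMIs to 136 ± 37 at 1, 207 ± 41 at 2 and 305 ± 36 at 3 or more. LMNA went from 48.7 ± 14.3 to 252 ± 31 CPM, and GSDMA from 30.5 ± 10.7 to 113 ± 14 CPM. CCDC3 went from 45.5 ± 16.4 to 105 ± 31 CPM and FGL2 from 177 ± 42 to 318 ± 30 CPM. Median UMIs of the cells also went up over these steps, from 3505 to 4834.5, and their part was not tested. The number of GATA3 UMIs was taken up once the data were known.

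**Figure D3:**
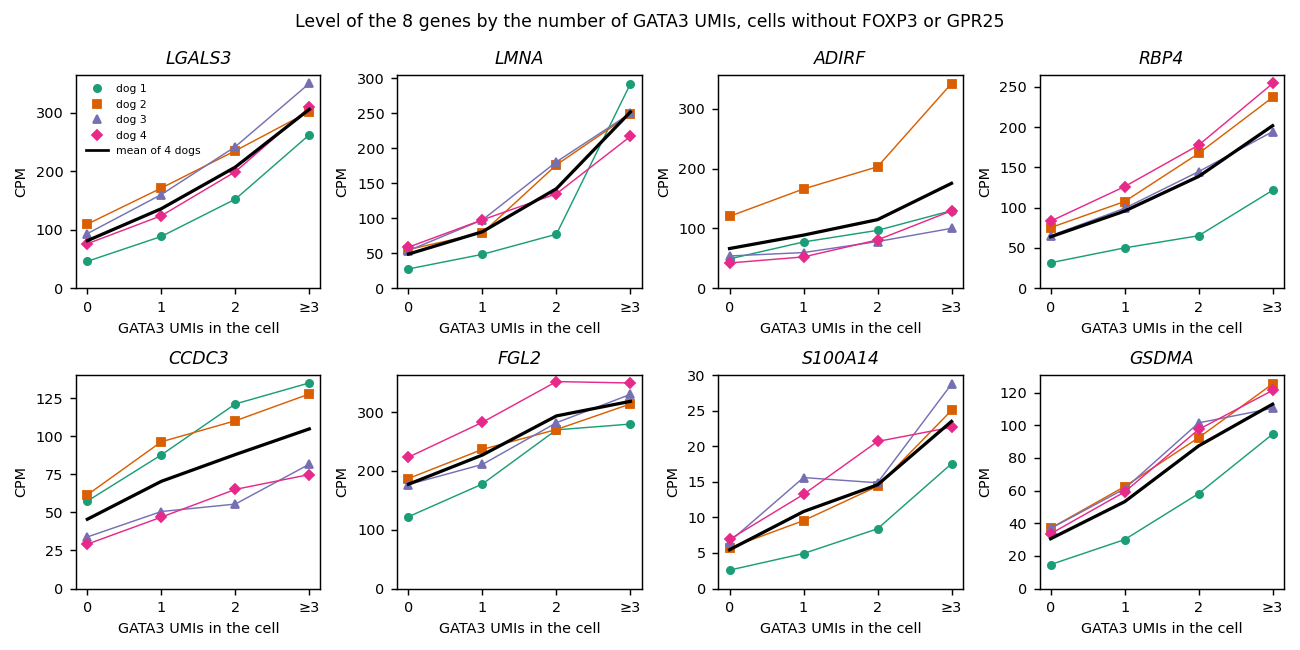
Level of each gene in CPM against the number of GATA3 UMIs in the cell, for cells without FOXP3 or GPR25. Thin lines are the 4 dogs and the black line their mean, which rises for LGALS3 from 81.2 CPM at 0 UMIs to 305 CPM at 3 or more.

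Differences between classes were then fitted in CD4 sp cells, with edgeR's quasi-likelihood test and Benjamini-Hochberg adjustment over all genes. Since the genes were chosen as high in populations of the Th2 and Treg kind, their differences from GPR25 cells are given as a description with no test. LGALS3 was at 252, 183, 196 and 256 CPM in the FOXP3 cells of dogs 1 to 4 and at 70.9, 118, 91.9 and 154 CPM in their GPR25 cells. The ranges did not overlap, and the difference was 0.99 ± 0.19 (log2 fold change, SE), or 1.99-fold. Of 5860 genes tested, 4 were higher in FOXP3 cells (0.0683%) and 3 lower (0.0512%). LGALS3 was among the 4, from which nothing is read, beside FOXP3 itself, IKZF2 and IL2RA. IL2RA is the interleukin 2 receptor α chain of Treg and activated T cells.

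LMNA was at 137, 51.7, 99.3 and 189 CPM in FOXP3 cells and at 55.4, 70.3, 46.6 and 76.0 CPM in GPR25 cells, with dog 2 in the opposite direction to the others. Its log2 fold change was 0.86 ± 0.26, and that of ADIRF, higher in FOXP3 cells in 4 of 4 dogs, was 0.95 ± 0.36. CCDC3 (-0.97 ± 0.45) and FGL2 (-0.42 ± 0.17) were at lower levels in FOXP3 cells in every dog. A lower level in every dog was found for 9.04% of the genes tested and a higher level for 7.97%. S100A14 was too low to be fitted.

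GATA3 and FOXP3 cells were also tested against each other. These classes by UMI are not the populations that chose the genes. A choice of genes held in common can itself limit this difference, so the p-values of the members do not decide it. No member passed without a block. LGALS3 was at 71.6, 162, 173 and 127 CPM in GATA3 cells and at 252, 183, 196 and 256 CPM in FOXP3 cells of the CD4 sp kind, with no overlap. The fold change was -0.72 ± 0.24 (log2, SE), with an unadjusted p of 0.00879 and an adjusted p of 0.894 in edgeR. ADIRF was lower in GATA3 cells in every dog (-0.89 ± 0.44) and CCDC3 was higher in every dog (1.09 ± 0.50), with an adjusted p of 0.962 for each in edgeR. Over all genes tested, 6.02% were lower and 9.84% higher in every dog.

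With the dog as a replicate block, adjusted p in edgeR were 0.0157 for LGALS3, 0.00179 for ADIRF and 0.0196 for CCDC3. Of 11 alternatives, the block was the only 1 in which these genes passed. The others had no block and took the sums of a dog as independent, although these correlated at 0.18 to 0.24. Over these, in edgeR or DESeq2, the largest adjusted p was 0.999985 for each of the 3 genes. Of 8160 genes, 1 was higher in GATA3 cells (0.0123%) and 4 were lower (0.049%), and with the block 19 (0.233%) and 28 (0.343%). GATA3 and FOXP3, which make the classes, were among them, with IKZF2, CTLA4 and ITGB1 lower in GATA3 cells. IKZF2 (Helios) and CTLA4 are known from Treg cells, and ITGB1 is the integrin β1 chain.

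Between GATA3 and GPR25 cells log2 fold changes ran from -0.44 ± 0.40 for RBP4 to 0.60 ± 0.56 for S100A14, and no member moved the same way in all 4 dogs. Among all genes tested, 10.1% were higher and 7.53% lower in every dog. FGL2 was at -0.33 ± 0.18. Of 8450 genes, 2 were higher (0.0237%) and 2 lower (0.0237%), GATA3 and GPR25 among them, and 109 genes passed with the block.

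By coreceptor, the members were highest in double-negative (dn) cells, which had no UMI of CD4 or CD8A. These were 36.1% of all cells. The authors expected fewer from flow cytometry. Their clusters were made with dn cells included. They left dn cells out where cells were divided by CD4 and CD8A, as true absence of CD4 could not be told from a missed transcript. All 8 were higher in dn than in CD4 sp cells in every dog, against 16.4% of genes. The ratio ran from 0.59 ± 0.17 for CCDC3 to 0.87 ± 0.39 for LMNA, and was 0.86 ± 0.30 for LGALS3. In GATA3 cells alone it ran from 0.78 ± 0.24 for FGL2 to 1.24 ± 0.50 for RBP4, again with all 8 higher in every dog, against 12.7% of genes. In GPR25 cells LGALS3 (0.62 ± 0.28), FGL2 (0.46 ± 0.19) and GSDMA (0.75 ± 0.50), 3 of 8, were higher in every dog, against 9.27% of genes. LMNA, at 0.03 ± 0.56, and ADIRF, at -0.09 ± 0.55, were not. In FOXP3 cells mean ADIRF was 136 ± 61 CPM in dn and 140 ± 116 CPM in CD4 sp cells. Mean LGALS3 was 223 ± 45 and 222 ± 38 CPM there, and the other members had higher means in dn cells.

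In CD8A sp cells 6 of 8 were lower than in CD4 sp cells in every dog, against 23.5% of genes. CCDC3 had the widest gap at -1.96 ± 0.19, followed by GSDMA at -1.53 ± 0.54. RBP4 (-0.34 ± 1.01) and FGL2 (-0.16 ± 0.46) differed in direction between dogs. dn cells had 3496 median UMIs, fewer than CD4 sp cells at 3955.

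The CD4 transcript was in turn less often found in cells that held a member, among cells without a CD8A UMI. These are the same dn and CD4 sp cells as above, so this restates that difference by detection and is not a separate result. With LGALS3, 43.7% ± 3.1 of 6642 cells had a CD4 UMI, against 56.6% ± 3.3 of 18115 cells without LGALS3. The difference was -12.9 ± 3.8 points (SD, n = 4), at medians of 4527 and 3473 UMIs. After each cell had been thinned to 2000 UMIs, CD4 included, the shares were 28.4% ± 1.6 and 41.8% ± 2.2. CD4 was lower in all 4 dogs for each of the 8 members, by 5.7 points for ADIRF to 12.98 points for RBP4 at all depths and by 6.2 points for CCDC3 to 13.4 points for LGALS3 after thinning. Among genes found in as many cells as the members, CD4 was lower in every dog for 1.79% of 6764 at all depths and for 9.22% of 6679 after thinning. The exact sign-flip permutation test gave p = 0.125 two-sided for each, the smallest value that 4 dogs allow. This comparison was chosen once the data were known.

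**Figure D4:**
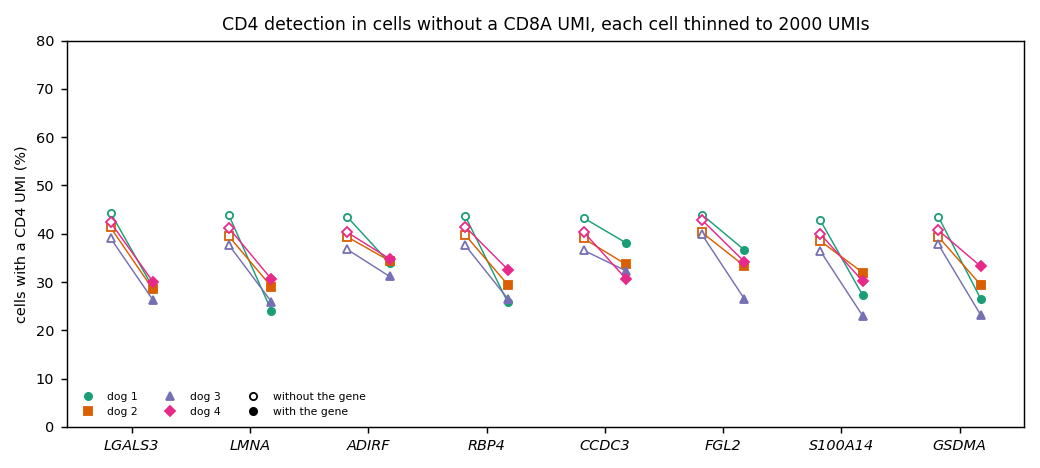
Percentage of cells with a CD4 UMI among cells without a CD8A UMI, every cell thinned to 2000 UMIs. Open symbols are cells without the gene and filled symbols cells with it, joined within each dog; for LGALS3 the means are 41.8% and 28.4%, and the line falls in every dog for each gene.

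Cells with at least 3 of the 8 made up 19.1% ± 5.9 of all cells and 53.3% ± 8.7 of GATA3+FOXP3 cells. The share was 29.1% ± 7.1 in GATA3 cells, 27.7% ± 8.3 in FOXP3 cells and 22.0% ± 6.5 in GPR25 cells. It was 12.1% ± 4.2 in cells with none and 7.3% ± 4.2 in naive-like cells. With every cell at 2000 UMIs the share was 10.8% ± 3.1 over all cells and 27.9% ± 8.5 in GATA3+FOXP3 cells. GPR25 cells, at 12.4% ± 5.9, were then level with FOXP3 cells, at 12.3% ± 3.6. GATA3 cells were at 16.2% ± 4.0 and cells with none at 6.8% ± 1.8. All 28 pairs were found together more often than the product of their shares in every dog, with thinning and without. Of the pairs among genes found in as many cells, 77.1% did so without thinning and 8.7% after it. The members were chosen together as high in the same populations, so this was partly set beforehand. It is given as a description with no test. After thinning LMNA and S100A14 were together 4.01 times as often, LGALS3 and LMNA 3.002 times and LGALS3 and RBP4 3.19 times. ADIRF and FGL2 had the lowest value at 1.29 times.

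Within CD4 sp cells, those with LGALS3 carried more of every other member in all 4 dogs, 7 of 7, against 18.0% of the genes tested. RBP4 was at 159, 167, 202 and 291 CPM with LGALS3 and at 6.8, 35.9, 21.4 and 50.1 CPM without. LMNA was at 177, 147, 245 and 186 CPM with LGALS3 and at 11.04, 30.9, 25.2 and 46.8 CPM without. The log2 fold change was 2.87 ± 0.45 (SE) for RBP4 and 2.75 ± 0.34 for LMNA. It was 1.60 ± 0.29 for GSDMA, 1.30 ± 0.21 for FGL2, 1.12 ± 0.37 for ADIRF and 0.49 ± 0.27 for CCDC3, with no test because the genes were chosen together. In cells with 3000 to 6000 UMIs these values were 3.16 for RBP4, 2.90 for LMNA and 0.70 for CCDC3.

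Other genes were tested across the same division. LGALS3 was itself chosen as high in populations of the Th2 and Treg kind. The direction of Th2, Treg and naive genes across the division was therefore partly set beforehand. Their p-values and counts describe the division and are not read as support. Cells with LGALS3 had 192 of 9668 genes higher (1.99%) and 91 lower (0.941%). These counts run over every gene fitted, LGALS3, which makes the division, and the other 7 members included. CCR10, a chemokine receptor of skin-homing T cells, was at 15.8 ± 5.1 CPM with LGALS3 and 1.7 ± 0.5 CPM without (log2 fold change 3.26 ± 0.30, adjusted p = 0.00115 in edgeR). CCR4, a receptor of Th2, Treg and skin-homing cells, was at 29.6 ± 4.9 and 6.3 ± 2.1 CPM (2.24 ± 0.21, adjusted p = 0.00117 in edgeR). Of the called genes in the lists, only CCR10 and CCR4 passed with each dog left out in turn, at adjusted p of 0.0402 and 0.046 at most in edgeR. These fits had no block.

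By list, 2 of 9 Th2 genes tested were higher (CCR4 and MAF) and none lower, and 3 of 12 Treg genes were higher (IL2RA, IKZF2 and CAPG) and none lower. Of 17 homing receptors, CCR10 and ITGB1 were higher and ITGAE lower. Of 10 S100 and annexin genes 5 were higher, among them ANXA1 (0.92 ± 0.10), ANXA2 (1.22 ± 0.14), S100A5 (1.92 ± 0.31) and S100A2 (1.56 ± 0.31). LGALS1, the gene of galectin-1, was the only other galectin of 3 to pass, at 1135 ± 99 CPM against 468 ± 162. Of 9 naive genes, TCF7 (-0.96 ± 0.12) and CCR7 (-1.63 ± 0.26) were lower and none higher. RXRA was the only 1 of 8 retinoid genes and IL18 the only 1 of 6 gasdermin and pyroptosis genes to be higher. None of 10 lamin and nuclear envelope genes, 15 cytotoxic and Th1 genes, 6 T cell genes, or the 1 FGL2 relative tested passed. With the replicate block 4 Th2, 6 Treg, 6 homing and 7 S100 and annexin genes were higher and 6 naive genes were lower, with 10.4% of all genes higher and 7.95% lower. The block also gave 1 Th2 gene lower, the interleukin 4 receptor gene IL4R (-0.59, adjusted p = 0.0053 in edgeR). Names within the S100 family rest on the authors' gene models, and reads of near copies may be shared between rows.

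The number of genes called across this division differed with the dogs used and with the block. In fits with no block it was 9 without dog 3, 35 without dog 2, 112 without dog 1 and 489 without dog 4. It was 283 with all 4 dogs, and 1779 with all 4 and the dog as a replicate block. No dog was left out in a fit with the block. Sums of the same dog correlated at 0.45 to 0.54 here, and the part of this pairing in the counts was not tested. In cells with 3000 to 6000 UMIs 206 genes passed, of which 174 were among the 283.

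Markers of cells other than T cells were looked up on both sides. Of 10 monocyte genes 6 were at 0 in cells with LGALS3, CSF1R, S100A12 and VCAN among them. The sum of the list was nonetheless 3579 to 4170 CPM with LGALS3 and 844 to 2573 CPM without, nearly all of it from the S100A8 row at 3791 ± 272 and 1669 ± 706 CPM (adjusted p = 0.0319 in edgeR). The B cell list gave 8720 to 9046 CPM with LGALS3 and 9287 to 10787 CPM without, nearly all from the CD79A row, while MS4A1 was at 5.3 and 0.75 CPM. The epithelial list summed to 92.3 to 128 CPM with LGALS3 and 128 to 153 CPM without, and the erythrocyte genes were at 0 on both sides. As other markers of these cells were near 0, it is uncertain whether the S100A8 and CD79A rows hold the genes they are named for, and the part of other cells in the results was not tested.

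Likeness of pattern was measured over 45 sums of class, coreceptor and dog, centred within dogs, for 7096 genes. SRGN, which encodes the granule proteoglycan serglycin, was nearest to LGALS3 (r = 0.91), followed by SELENOW (0.89), PLEC (0.89), the row ENSCAFG00000014359 (0.87) and S100A8 (0.86). That unnamed row was also the nearest to LMNA (0.95). Sums of 1 dog share a library, so these values describe and are not tested.

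In likeness to LGALS3, LMNA came 26th (0.78), ADIRF 31st (0.78), S100A14 32nd (0.77), GSDMA 53rd (0.74) and RBP4 58th (0.73) of the 7096 genes, while FGL2 came 290th and CCDC3 357th. RBP4 and FGL2 were each other's nearest gene (0.80). CCDC3 was nearest to CD40LG (0.84), the ligand by which helper T cells act on B cells. ADIRF was nearest to RUBCN (0.88), GSDMA to MMP25 (0.88) and S100A14 to S100A2 (0.83).

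Receptor sequences, which had not been used to choose the genes, were then joined to the cells. A clone was the set of cells of a dog with the same TRB genes and junction nucleotides, in cells with exactly 1 TRB rearrangement. Of CD4 sp cells with LGALS3, 14.2%, 46.1%, 40.5% and 48.2% in dogs 1 to 4 belonged to a clone of at least 2 cells. The shares without LGALS3 were 3.7%, 23.1%, 17.5% and 48.8%. The difference was 13.96 ± 11.4 points (SD, n = 4) and was positive in 3 of 4 dogs, with p = 0.25 in the exact two-sided sign-flip permutation test, whose smallest value is 0.125. Dog 4, the oldest, had nearly the same share of expanded cells on either side.

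Cells were then compared with the other cells of their clone. For 2296 CD4 sp cells in 542 clones of at least 2 cells, detection in the clone mates of a positive cell was set against that in the mates of a negative cell, an analysis chosen once the data were known. CCDC3 was found in 41.6% ± 12.1 of mates of positive cells and 4.3% ± 2.4 of mates of negative cells. Positive cells numbered 123 for CCDC3 and 55 for S100A14 over the 4 dogs, the fewest of the members. Each dog counts equally in the means, however few its positive cells. The difference was 37.3 ± 13.97 points for CCDC3, 30.1 ± 6.1 for RBP4, 22.7 ± 10.0 for ADIRF, 17.2 ± 13.9 for LMNA, 17.0 ± 7.8 for LGALS3, 15.5 ± 14.2 for S100A14 and 13.6 ± 5.6 for FGL2. These 7 were higher in all 4 dogs, against 7.27% of the 6764 genes found in as many cells, and for each of them the exact permutation test gives p = 0.125, the smallest value possible. The 6764 genes were taken by their share of cells alone, whereas the members were chosen as high in certain T cell populations. The count of 7 is therefore not read as particular to the members. GSDMA differed by 4.7 ± 9.5 points and was higher in 3 of 4 dogs. Without the largest clone of each dog the values were 37.4 points for CCDC3 and 18.0 for LGALS3. In cells with 3000 to 6000 UMIs S100A14 was higher in 1 of 4 dogs and LMNA and ADIRF in 3 of 4.

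**Figure D5:**
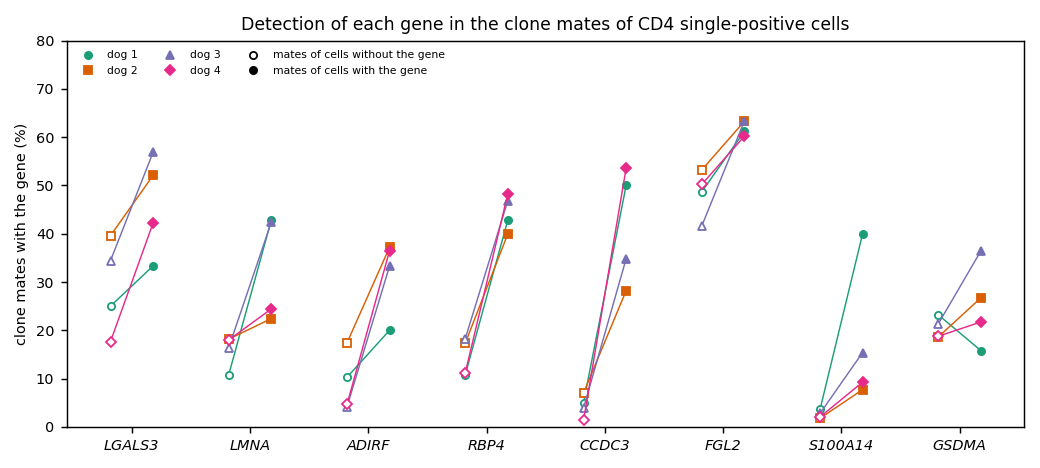
Percentage of clone mates in which each gene was found, for CD4 sp cells in clones of at least 2 cells. Open symbols are mates of cells without the gene and filled symbols mates of cells with it, joined within each dog; CCDC3 goes from 4.3% to 41.6% on average.

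Single clones differed in the members they held. The junctions of 4 clones are given 5' to 3' to name the lineages that carry the contrast. The first 3 are the clones with the most CD4 sp GATA3 cells in dogs 2, 3 and 4, and the last is the clone of at least 10 CD4 sp cells with the highest share of LGALS3, which was picked for that value.
Dog 2, TRBV3-2 and TRBJ2-5: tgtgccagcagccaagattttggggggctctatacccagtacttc
Dog 3, TRBV15 and TRBJ1-2: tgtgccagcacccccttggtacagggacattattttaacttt
Dog 4, TRBV16 and TRBJ2-1: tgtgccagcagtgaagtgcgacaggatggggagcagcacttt
Dog 4, TRBV3-1 and TRBJ1-3: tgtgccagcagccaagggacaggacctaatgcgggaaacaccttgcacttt

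The first 3 are counted over all coreceptor states. The dog 2 clone had 54 cells, of which 23 held LGALS3, 26 ADIRF, 15 RBP4 and none CCDC3. In the dog 3 clone, 53 of 86 cells held LGALS3 and none held ADIRF, which allows a share of up to 3.49% by counting error alone. The dog 4 clone with TRBV16 had 83 cells with LGALS3 in 15, FGL2 in 48 and ADIRF in none, a limit of 3.61%. In the dog 4 clone with TRBV3-1, 21 of 28 CD4 sp cells held LGALS3 (75%, exact 95% interval 55.1 to 89.3%) and 16 held ADIRF, but LMNA was found in 1 and RBP4 in none, with a limit of 10.7%. GATA3 was found in 16 of these 28 cells and FOXP3 in none.

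Among the 46 clones of at least 10 CD4 sp cells, 27 had no cell with ADIRF, 13 none with RBP4 and 40 none with CCDC3, while 1 had none with LGALS3 and all had FGL2. At least 50% of cells held LGALS3 in 9 clones, RBP4 in 6, ADIRF in 1 and FGL2 in 31. Of these clones 29 came from dog 4, 11 from dog 2, 6 from dog 3 and none from dog 1. Over all cells of dog 4 CCDC3 was found in 6.87%, ADIRF in 10.9%, RBP4 in 20.3%, LGALS3 in 23.4% and FGL2 in 49.0%. A gene found in fewer cells is also missed in more clones of this size. The number expected from this was not worked out, so the order of the genes is not read as a difference between lineages.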

How the data were processed

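Single-cell gene expression and receptor libraries of 4 dogs were analysed, with groups and dogs taken from the labels. The authors made the counts with Cell Ranger 5.0.1 against CanFam 3.1 and deposited them unnormalized, as UMIs of each gene in each barcode and of each receptor rearrangement. The dog 1 gene list has 27980 lines for 20257 matrix rows, so its counts were read with the list common to the other dogs (r of log row totals 0.989 to 0.991).

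Cells were kept if they held 500 to 20000 UMIs and no more than 10% of them came from 13 mitochondrial genes, which left 31909 of 33125 barcodes. Dogs shared 545 barcodes. Doublets were not removed, and 894 cells with more than 1 TRB rearrangement remained. Libraries held 26904346 to 35661623 UMIs. At this depth a missing UMI does not show that a gene is off, and intervals cover counting error only.

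UMIs were summed per dog and class (at least 20 cells) and tested with edgeR 4.0.16 (filterByExpr, TMM, quasi-likelihood, adjusted p under 0.05), without a block. Since both sums of a pair come from the same animal, the dog as a block was the alternative. Deviations of sums from the same dog correlated at 0.13 to 0.54, and of different dogs at 0.0015 at most. Ratios used log2(CPM + 1). The SE of an edgeR fold change was derived as the size of its log2 value divided by the square root of the F statistic. Classes and the absence of CD8A were judged at full depth also after thinning. Counts over 4 dogs were set beside the same counts over genes of at least 5 CPM and, for pairs, CD4 and clone mates, those found in a share of cells within the members' range. The test was tried on simulated data with 200 changed genes. Thinning, a marker cut of 2 UMIs, DESeq2 1.42.0, RLE, no filter, a depth window, cells with 1 TRB and leaving out each dog were the alternatives. The genes named are the members, the class markers and up to 4 called genes a list. The members and lists were chosen with earlier results of these data known.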

Additional observations from a re-analysis of the deposited data

Results flagged for a closer look

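In 6 of 40 groups of 4 dogs, 1 dog lay farther from the others than Dixon's 95% limit, which chance alone passes in about 1 group of 20. Dog 2 stood apart for ADIRF, at 194 CPM in GATA3 cells and 120 CPM in cells with none. Dog 1 stood apart on the low side for GSDMA, at 42.9 CPM in GATA3 cells and 14.7 CPM in cells with none. It also stood apart for LMNA, at 227 CPM in GATA3+FOXP3 cells and 27.5 CPM in cells with none.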

How the results depend on the processing

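Of 796 values under alternatives, 705 counted as the same, 76 moved, 10 newly passed the threshold, 4 no longer passed it and 1 reversed. Ratios counted as the same within the SD of the main value, and gene counts within a factor of 1.5. Tested fold changes did so where passing or not passing the threshold was unchanged. A value counted as the same could therefore change sign. For example, CCDC3 in GATA3+FOXP3 against FOXP3 cells went from -0.33 to 0.16 after thinning. The reversed value was S100A14 in GATA3+FOXP3 against GATA3 cells, at -1.37 with markers at 2 UMIs. Members higher in GPR25 cells numbered 3 with exactly 1 TRB and 2 in CD4 sp cells. The share of cells with at least 3 members was 10.8% after thinning. With the dog as a replicate block, 47 genes differed between GATA3 and FOXP3 cells, 109 between GATA3 and GPR25 cells, 49 between FOXP3 and GPR25 cells and 1779 across LGALS3 detection. Counts with DESeq2 were 11 for GATA3 against FOXP3, 11 for FOXP3 against GPR25 and 554 for LGALS3. Without a filter they were 9 for GATA3 against FOXP3 and 71 for FOXP3 against GPR25. GATA3 against FOXP3 gave 3 in cells with 3000 to 6000 UMIs and 3 in any coreceptor state, where FOXP3 against GPR25 gave 12. Leaving out each dog, in fits with no block, gave 2 to 5 genes for GATA3 against FOXP3 and 2 to 7 for GATA3 against GPR25. It gave 3 to 10 for FOXP3 against GPR25 and 9 to 489 for LGALS3, the last lowest without dog 3 and highest without dog 4. The causes were not tested. CD4 sp FOXP3 sums held 43 to 88 cells a dog, which limits the tests that use them.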
